A study of Mus musculus with 200 samples.

Results

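The milk proteins examined here are the 5 caseins Csn2, Csn1s1, Csn1s2a, Csn1s2b and Csn3 and the whey proteins Wap and Lalba. They were taken by symbol from the 38406 genes of a count table of 200 single medullary thymic epithelial cells, and all 7 were found. The cells came from thymi of female B6xNOD mice aged 5 weeks. All mice, the controls included, carried an Aire-GFP transgene, so GFP served as the reporter of Aire, and cells were sorted as CD45-, Ly51-, MHCII+ and GFP+. The 4 groups were Aire knockout cells with high GFP (KO GFPhi, 48 cells), Aire wild-type cells with high GFP (WT GFPhi, 61 cells), knockout cells with low GFP (KO GFPlo, 52 cells) and wild-type cells with low GFP (WT GFPlo, 39 cells). The labels name no animal, so each group was treated as 1 sample, and no difference between groups has a replicate test.

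Caseins are the calcium-binding phosphoproteins that form the micelles of milk, and whey acidic protein and alpha-lactalbumin are soluble proteins of mouse whey. In the mammary gland their genes are switched on in pregnancy and lactation by prolactin, acting through its receptor and STAT5, together with glucocorticoid. Medullary thymic epithelial cells transcribe genes of other tissues, many of them through the regulator Aire, and so display tissue antigens to developing T cells. The casein genes lie side by side on the chromosome, which has made them a common test of whether neighbouring tissue antigens are transcribed together in the same medullary cell.

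The 5 casein genes cover 266 kb of chromosome 5 (mm10, GENCODE M21). Csn1s1, an alpha-casein, is at chr5:87666208-87682578 on the plus strand, and Csn2, the beta-casein, follows 10 kb away at chr5:87692624-87699630 on the minus strand. Csn1s2a lies 74.9 kb further at chr5:87774567-87788797, Csn1s2b 19.3 kb after it at chr5:87808082-87824426, and Csn3, the kappa-casein that keeps micelles in suspension, 101 kb after that at chr5:87925579-87932665, all 3 on the plus strand. Wap is on chromosome 11 (chr11:6635482-6638637, minus strand) and Lalba on chromosome 15 (chr15:98480400-98482721, minus strand).

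Of the 7 genes, 5 had a start-site window in the RefSeq table (GRCm38.p6, 250 bases before to 50 bases after the start). The palindrome TTCNNNGAA, the form of site bound by STAT5, was searched, which reads the same on both strands. It was present in 3 of the 5 windows: 93 bases before the RefSeq start in Csn2, 100 bases before it in Csn1s1 and 20 bases after it in Csn1s2a. Of these 3 genes, Csn2 and Csn1s2a have another start in GENCODE. That start is chr5:87699630 in Csn2, inside the window, and chr5:87774567 in Csn1s2a, past the window's end at chr5:87774499. Counted from the GENCODE start, the site would lie after the start in Csn2 and before it in Csn1s2a. Among all 32851 windows of the table, 8.30% held it. The window of the gene with most counts (Csn2), that of its nearest neighbour on the chromosome (Csn1s1) and that of the gene at 0 in every cell (Wap) are given 5′ to 3′, with any match in capitals, at chr5:87699376-87699675 (minus strand), chr5:87665958-87666257 (plus strand) and chr11:6638600-6638899 (minus strand).
Csn2: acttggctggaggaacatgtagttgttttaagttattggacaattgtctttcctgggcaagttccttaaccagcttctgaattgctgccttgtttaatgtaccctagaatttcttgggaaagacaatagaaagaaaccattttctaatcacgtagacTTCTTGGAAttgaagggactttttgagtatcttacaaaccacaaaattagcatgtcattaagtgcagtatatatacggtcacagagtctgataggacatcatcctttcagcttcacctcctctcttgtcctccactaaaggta
Csn1s1: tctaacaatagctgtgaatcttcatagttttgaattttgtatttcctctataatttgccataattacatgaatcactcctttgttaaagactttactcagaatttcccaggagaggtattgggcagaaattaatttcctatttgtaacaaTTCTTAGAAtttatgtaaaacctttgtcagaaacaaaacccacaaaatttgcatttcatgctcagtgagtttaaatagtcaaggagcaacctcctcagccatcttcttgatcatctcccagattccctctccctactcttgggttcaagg
Wap: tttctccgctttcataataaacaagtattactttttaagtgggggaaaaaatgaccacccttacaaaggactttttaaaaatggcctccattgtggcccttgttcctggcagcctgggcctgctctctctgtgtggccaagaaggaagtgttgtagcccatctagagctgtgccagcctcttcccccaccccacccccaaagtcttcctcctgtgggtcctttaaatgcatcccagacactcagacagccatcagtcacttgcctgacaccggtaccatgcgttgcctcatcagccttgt
The Wap and Lalba windows held no match, which says only that these letters are not in those windows.

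Each cell's RNA had been copied with a barcoded oligo-dT primer, and cells were sequenced as 12 library pools. Each sort date gave 6 of them, with 72 cells for the first and 128 for the second. Totals ran from 2429 to 370365 counts per cell with a median of 29106.5, and the group sums ran from 1847240 to 3468109 counts. Of 8 epithelial genes Krt8 was in the most cells, with 48 of 48 KO GFPhi, 61 of 61 WT GFPhi, 49 of 52 KO GFPlo and 37 of 39 WT GFPlo cells. Epcam was in fewer, with 42, 52, 36 and 32 cells in the same order of groups. On the second date it was in 18 of 30 KO GFPlo cells. The summed level of 8 epithelial genes was 3554 counts per 1000000 (CPM) in KO GFPhi, 2409 in WT GFPhi, 2433 in KO GFPlo and 3719 in WT GFPlo cells. That of 20 leukocyte genes, which the CD45 gate should keep low, was 1235, 1526, 2982 and 1650 CPM in the same order of groups. Aire transcripts were counted in knockout cells too, at 815 and 316 CPM in KO GFPhi and KO GFPlo cells, against 537 and 244 CPM in WT GFPhi and WT GFPlo cells. Which part of the gene the knockout removes is not given in the sources used here, so the Aire count is no check of the genotype. Of the 30 primers, each was used for cells of 1 group alone, so primer and group cannot be told apart. Cells that shared a primer and a date, but not a pool, also shared genes. A median of 13.4% of the rare genes counted in either cell of such a pair (genes seen in 2 to 20 of the 200 cells) were counted in both, over 313 pairs. For cells of the same group and date with other primers and pools it was 2.11%, over 2003 pairs. For cells with the same primer on different dates it was 2.97%, over 301 pairs. The 200 cells thus form 54 sets of 1 primer and 1 date, within which cells are not independent. The cause of the sharing was not tested.

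Csn2 was by far the most abundant milk transcript. It had 21153 counts, in 184 of 200 cells, while the 6 other genes together had 912. Per kb of annotated exon sequence this was 3054 counts for Csn2, against 74.5 for Csn1s2a, 73.2 for Csn1s1, 48 for Lalba, 26 for Csn3 and 11.5 for Csn1s2b, and 0 for Wap. Copying from oligo-dT favours transcript ends, and how far counts scale with exon length was not tested.

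Csn2 was present in all 4 groups, with the highest level in KO GFPhi cells and the lowest in WT GFPlo cells. Its level, as the group's Csn2 counts per 1000000 counts with a 95% Poisson interval for counting error only, was 3018 CPM (2956–3081) in KO GFPhi cells and 2097 CPM (2049–2146) in WT GFPhi cells. In the low gate it was 1652 CPM (1594–1711) in KO GFPlo cells and 769 CPM (733–806) in WT GFPlo cells. These intervals do not overlap, but they leave out the spread between cells and mice. Single cells spread far more widely. KO GFPhi cells ran from 0 to 20697 CPM with a median of 2111, and WT GFPhi cells from 0 to 17940 CPM with a median of 1262. KO GFPlo cells ran from 0 to 23475 CPM with a median of 388, and WT GFPlo cells from 0 to 31271 CPM with a median of 213. The ranges of all 4 groups overlapped over nearly their whole length, and the cell with the highest level of all belonged to the group with the lowest sum.

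**Figure D1:**
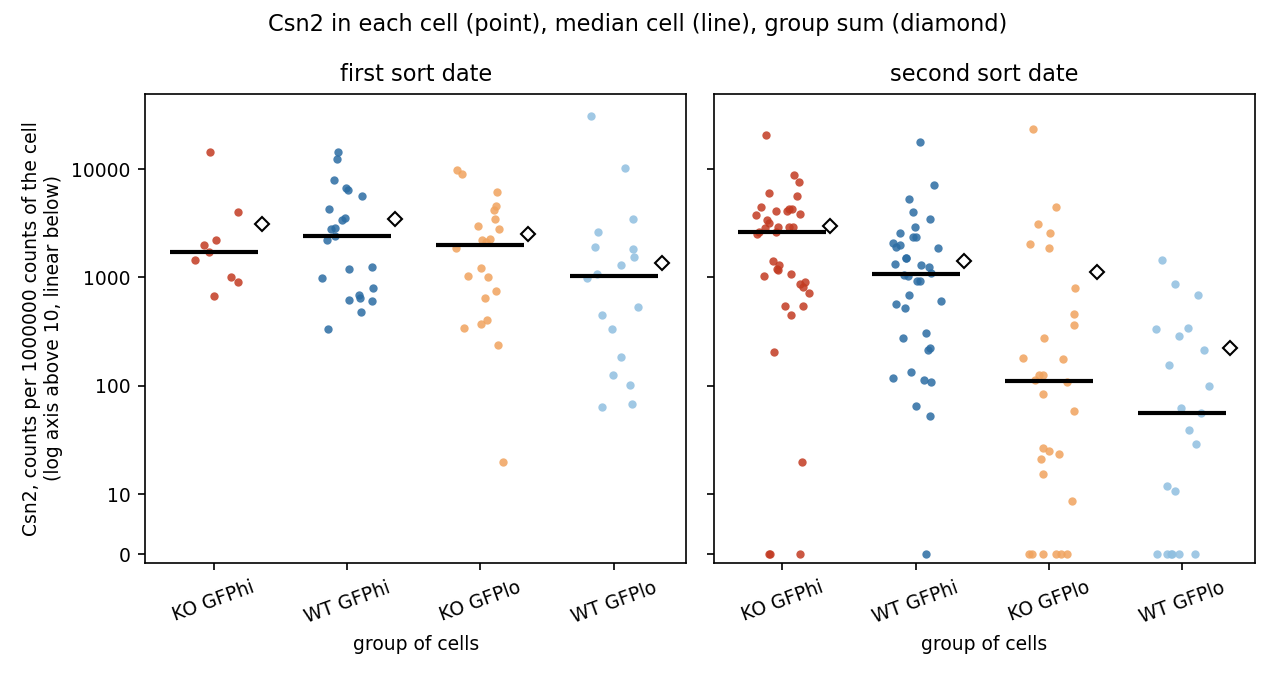
Csn2 level of each cell (points), median cell (line) and level of the group's summed counts (open diamond) on each sort date, in counts per 1000000 counts on a log axis that is linear below 10. All cells without Csn2 are on the second date, and the median cell of KO GFPlo is at 1995 CPM on the first date and 111 CPM on the second.

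Csn2 also differed between the sort dates. The summed level of KO GFPhi cells was 3088 CPM on the first date and 2990 CPM on the second, but on the first date 1 of the 9 cells (umi_10) held 36% of the counts. Without it the level was 2139 CPM, and the median KO GFPhi cell was at 1734 CPM on the first date and 2634 CPM on the second. WT GFPhi cells were at 3445 and 1414 CPM, KO GFPlo cells at 2547 and 1132 CPM, and WT GFPlo cells at 1355 and 225 CPM. On the second date 1 KO GFPlo cell, with 902 Csn2 counts, held 68.1% of its group's Csn2. Primers differed too. On the second date the 8 KO GFPhi primers ran from 4.29 CPM (umi_9) to 9351 CPM (ls_2), the 8 WT GFPhi primers from 193 to 3694, the 8 KO GFPlo primers from 10.5 to 17885 and the 6 WT GFPlo primers from 6.87 to 986 CPM. The ranges over primers overlapped between all groups on both dates, so no neighbours in the order of levels differ beyond the spread between primers.

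Between genotypes, the summed level of Csn2 was higher in knockout cells in the low gate on both dates, and in the high gate on the second date alone, but the direction in the low gate on the first date turned with the weight given to cells. In GFPhi cells the KO level was 1.44 times the WT level (1.40–1.48, counting error only), with a log2 ratio of 0.52 over both dates, −0.16 on the first and 1.08 on the second. With a mean that weights cells equally, 3014 CPM in KO GFPhi and 2537 CPM in WT GFPhi cells, the log2 ratio was 0.25, and without pool 11 it was 0.26. Within the 12 library pools, each of which held cells of both groups, the KO GFPhi level was the higher in 5 pools and the lower in 7. In GFPlo cells the KO level was 2.15 times the WT level (2.02–2.28). The log2 ratio was 1.10 over both dates, 0.91 on the first and 2.33 on the second. There the mean over cells was 1891 CPM in KO GFPlo and 1613 CPM in WT GFPlo cells, a log2 ratio of 0.23. On the first date this mean was lower in KO cells, at 2624 CPM in KO GFPlo and 3236 CPM in WT GFPlo cells, a log2 ratio of −0.30, and on the second date it was higher, at 1353 and 223 CPM, a log2 ratio of 2.60. The median cell of the first date was at 1995 CPM in KO GFPlo and 1031 CPM in WT GFPlo cells. Of the 11 pools with cells of both groups, the KO GFPlo level was the higher in 8 and the lower in 3. In pools 8 and 9 WT GFPlo cells had 0 counts, and in pool 9 this set 1 count in 4 KO GFPlo cells against 1 WT GFPlo cell.

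Between gates, the summed level of Csn2 was higher in GFPhi than in GFPlo cells in both genotypes and on both dates, but in KO cells of the first date this rested on 1 cell. In WT cells the GFPhi level was 2.73 times the GFPlo level (2.59–2.88), with log2 ratios of 1.45 over both dates and 1.35 and 2.65 by date. In KO cells it was 1.83 times (1.75–1.90), with log2 ratios of 0.87, 0.28 and 1.40. On the first date the median cell was lower in KO GFPhi, at 1734 CPM, against 1995 CPM in KO GFPlo, and the KO GFPhi sum without its umi_10 cell, 2139 CPM, was below the KO GFPlo sum of 2547 CPM. Within pools the GFPhi level was the higher in 10 of 11 pools in WT cells and in 9 of 12 pools in KO cells. Whether the gate's ratio differs between WT and KO cells was not tested, since each group is 1 sample. The gate itself was not alike on the 2 dates. The median GFP intensity of GFPhi cells lay between 20952.5 and 28917 arbitrary units on both dates. That of KO GFPlo and WT GFPlo cells was 8337 and 5960 units on the first date, and 2515 and 2290 on the second. Whether the dimmer GFPlo cells account for the lower Csn2 of the second date was not tested.

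**Figure D2:**
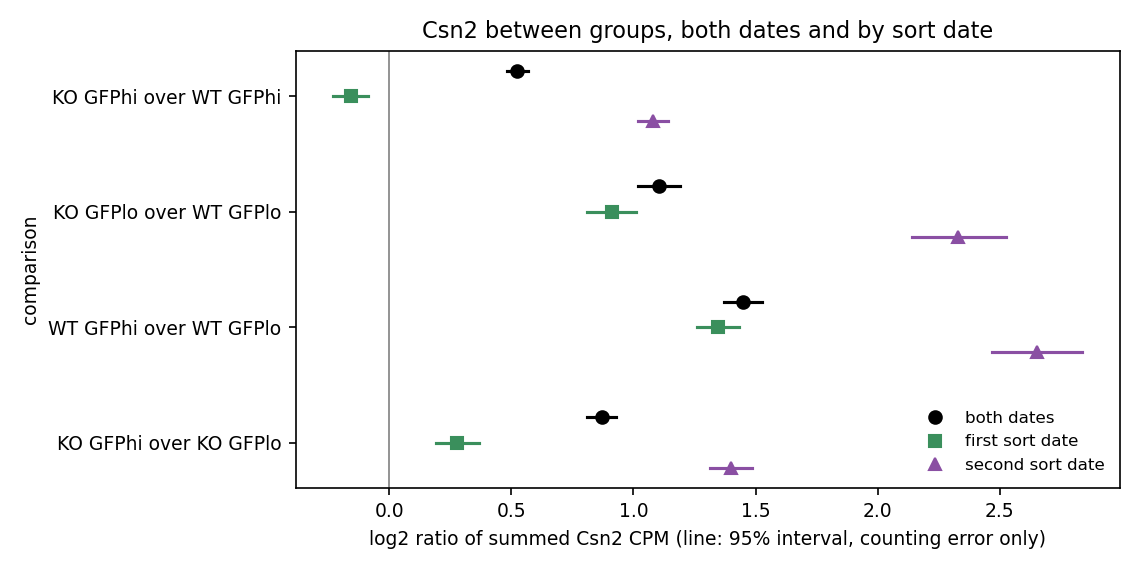
Log2 ratio of the summed Csn2 level for 4 pairs of groups, over both dates (circles) and on the first (squares) and second date (triangles), with 95% intervals for counting error only. KO GFPhi over WT GFPhi lies at −0.16 on the first date and 1.08 on the second, and the 3 other ratios are above 0 on both.

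Some cells held leukocyte transcripts, and in KO GFPhi their number rested on 1 gene. Cells with more counts of 20 leukocyte genes than of 8 epithelial genes numbered 6 of 48 in KO GFPhi, 13 of 61 in WT GFPhi, 16 of 52 in KO GFPlo and 7 of 39 in WT GFPlo cells. Without the GTPase gene Rac2, which held 30.1% of the counts of the leukocyte list, they numbered 0, 10, 14 and 6 in the same groups. Leaving out the cells marked by the full list brought the log2 ratio of Csn2 in KO over WT GFPhi cells to 0.01 and that of KO GFPhi over KO GFPlo cells to 0.19. Leaving out those marked without Rac2 gave 0.45 and 0.31. The 6 marked KO GFPhi cells were at 6706 CPM of Csn2, against 2450 CPM in the 42 other KO GFPhi cells. In the low gate the 16 marked KO GFPlo cells were at 959 CPM, against 2152 CPM in the 36 others, and the 7 marked WT GFPlo cells at 125 CPM, against 928 CPM in the 32 others. Over both dates Csn2 was thus higher in marked than in other cells in KO GFPhi and lower in the 3 other groups. Most marked cells were of the second date, with 6 of 6 in KO GFPhi and 7 of 13 in WT GFPhi. It was 14 of 16 in KO GFPlo and 5 of 7 in WT GFPlo. On that date Csn2 was lower in the low gate, at 1132 CPM in KO GFPlo and 225 CPM in WT GFPlo, against 2547 and 1355 CPM on the first. Whether marking or date goes with the difference was not tested. Over all groups Csn2 was counted in 37 of 42 marked cells (88.1%, exact binomial 74.4–96.0%) and in 147 of 158 others (93.0%, 87.9–96.5%). After each cell was thinned to 10000 counts the shares were 75% and 88.8%. How much of this share comes from RNA of other cells was not tested.

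Csn2 was detected in most cells of every group. It had a count in 45 of 48 KO GFPhi cells (93.8%, 82.8–98.7%), 60 of 61 WT GFPhi cells (98.4%, 91.2–99.96%), 46 of 52 KO GFPlo cells (88.5%, 76.6–95.6%) and 33 of 39 WT GFPlo cells (84.6%, 69.5–94.1%). The difference of KO GFPhi minus WT GFPhi was −4.61 percentage points. Its interval (−15.7 to 4.09), which treats cells as independent, holds 0. At 10 counts or more the shares were 83.3% and 82% in these groups. After thinning to 10000 counts Csn2 remained in 90.9% of KO GFPhi, 96.4% of WT GFPhi, 79.2% of KO GFPlo and 71.9% of WT GFPlo cells that had this depth. All 72 cells of the first date had Csn2. The 16 cells without it were all of the second date, and 9 of them also had no Aire count, while Aire was counted in 161 of all 200 cells. They came from 10 of the 54 sets, and 6 of these 10 were of umi primers. In the high gate they were 3 of the 4 cells of primer umi_9 in KO GFPhi and 1 of the 4 of umi_13 in WT GFPhi. Cells of umi primers numbered 10, 14, 12 and 11 in KO GFPhi, WT GFPhi, KO GFPlo and WT GFPlo.

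Within groups and over both dates, the rank correlation of Csn2 with GFP intensity was higher in the low gate than in the high gate, as a description over cells that share primers, pools and depth. Spearman's rho between the Csn2 level and GFP intensity was 0.25 in 48 KO GFPhi and 0.14 in 61 WT GFPhi cells, against 0.57 in 52 KO GFPlo and 0.58 in 39 WT GFPlo cells. Within dates the contrast was smaller or turned. In KO cells rho was −0.47 in 9 GFPhi cells and 0.09 in GFPlo cells on the first date, and 0.33 and 0.37 on the second. In WT cells it was 0.02 in GFPhi and 0.47 in GFPlo cells on the first date, and 0.19 and 0.33 on the second. Cells without an Aire count still held Csn2. In the high gate they were few and the groups went opposite ways, with a median Csn2 level of 1995 CPM in 43 KO GFPhi cells with an Aire count and 2651 CPM in 5 without, and 1335 CPM in 57 WT GFPhi cells with one and 638 CPM in 4 without. In the low gate the median Csn2 level was 1005 CPM in 35 KO GFPlo cells with an Aire count and 58.9 CPM in 17 without, and 312 CPM in 26 WT GFPlo cells with one and 61.8 CPM in 13 without. On the first date there was less difference: 1995 and 1667 CPM in KO GFPlo cells, and 1031 and 1133 CPM in WT GFPlo cells, with 4 cells without Aire in each.

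**Figure D3:**
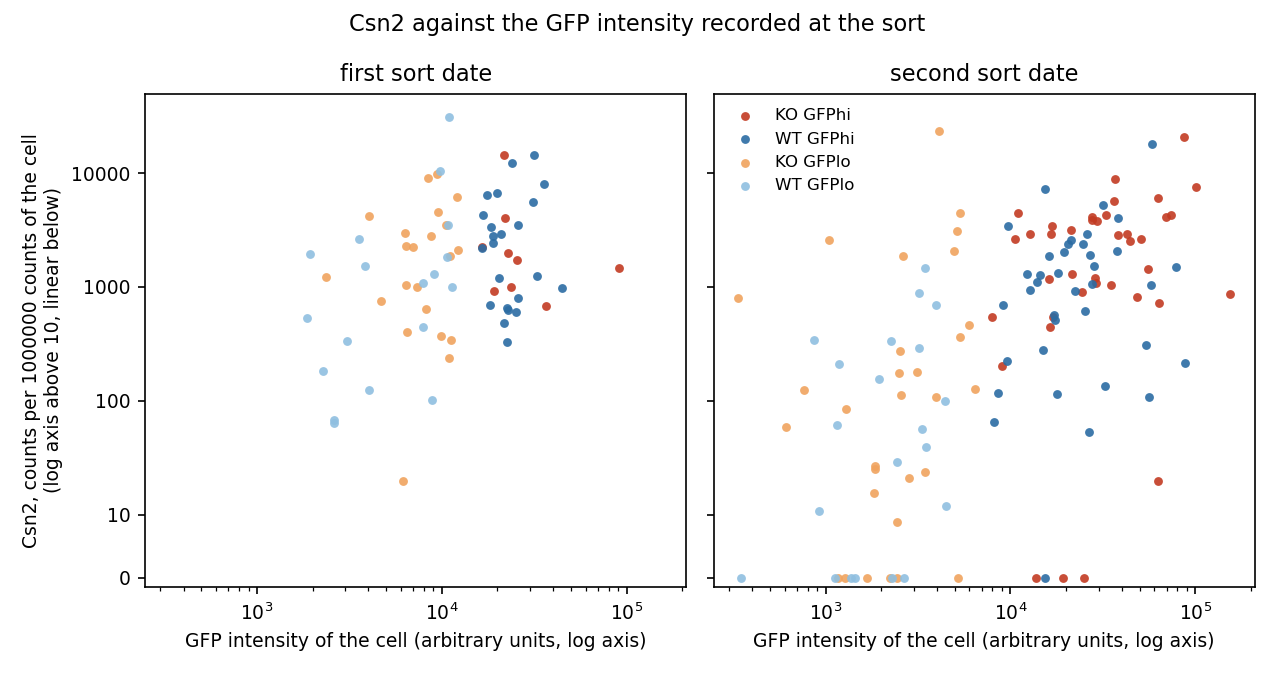
Csn2 level of each cell (counts per 1000000, log axis that is linear below 10) against the cell's GFP intensity at the sort (arbitrary units, log axis), by group and sort date. On the second date GFPlo cells have a lower GFP intensity (medians of 2515 and 2290 in KO and WT cells) than on the first (8337 and 5960), and their Csn2 reaches 0.

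Among the genes ranked, those whose level followed Csn2 most closely over the 200 cells were led by Ubd. They were ranked by Pearson's r of log2(CPM + 100). Of 11212 genes counted in at least 20 cells 10347 were ranked, as gene models, pseudogenes, ribosomal protein genes and spike-ins were left out. Ubd, a ubiquitin-like modifier, had r = 0.62, and was the only one of the 8 most like genes with r above 0.5 on each date (0.56 and 0.58). Srgn, a proteoglycan core protein of secretory granules, had r = 0.60 (0.25 and 0.68 by date). Calcb, a calcitonin gene-related peptide, had r = 0.53 (0.21 and 0.59), and Hdc, the enzyme that makes histamine, r = 0.53 (0.15 and 0.65). The deacetylase Sirt1 (0.52), the MHC class II invariant chain Cd74 (0.52), the pyrophosphate transporter Ank (0.51) and the collagen gene Col14a1 (0.50, with 0.50 and 0.48 by date) followed. Aire ranked 9 with r = 0.50 (0.20 and 0.60 by date), and Fezf2, another regulator of tissue antigens, was at rank 94 with r = 0.33. In 54 cells, the deepest of each primer and date, r was 0.66 for Ubd, 0.66 for Cd74 and 0.53 for Aire. These cells share libraries and depth, and the values describe them only.

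The 4 other caseins were rare, and were counted in far fewer knockout than wild-type cells of the high gate. At least 1 of them was counted in 1 of 48 KO GFPhi cells (2.08%, 0.0527–11.1%), against 16 of 61 WT GFPhi cells (26.2%, 15.8–39.1%). On the first date it was 0 of 9 KO GFPhi cells (0–33.6%), against 5 of 23 WT GFPhi cells (7.46–43.7%), with overlapping intervals. On the second it was 1 of 39 KO GFPhi cells, against 11 of 38 WT GFPhi cells. In the low gate it was 6 of 52 KO GFPlo cells (11.5%, 4.35–23.4%), against 14 of 39 WT GFPlo cells (35.9%, 21.2–52.8%). All 6 KO GFPlo cells were of the first date, where they were 6 of 22, against 10 of 18 WT GFPlo cells. On the second date it was 0 of 30 KO GFPlo cells, against 4 of 21 WT GFPlo cells. Together with Lalba and Wap these genes had 2 counts in KO GFPhi, against 110 in WT GFPhi cells, which is 0.664 CPM (0.0804–2.40) against 31.7 CPM (26.1–38.2) and a ratio of 0.0209 (0.00250–0.0774). The log2 ratio was −5.26 over both dates and −4.83 and −5.10 by date, while that of Csn2 was 0.52. The first-date value rests on the 0.5 counts added to each sum, since KO GFPhi cells had 0 counts there, against 19 in WT GFPhi cells. With 3 counts over the group in place of 0 this was at least 4.63-fold lower. In the low gate the 6 genes had 25 counts in KO GFPlo, against 775 in WT GFPlo cells, a ratio of 0.0395 (0.0254–0.0587) and log2 ratios of −4.14 and −5.81 by date. Few cells carry these sums, since 1 cell held 59.1% of the WT GFPhi counts, 64.0% of the KO GFPlo counts and 57.7% of the WT GFPlo counts. Without pool 11 the log2 ratio in the high gate was −4.41, and without pool 12 it was −5.95.

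The alpha-caseins were led by Csn1s1, with 457 counts in 16 cells. It had 0 counts in KO GFPhi, against 22 in 8 WT GFPhi cells (6.34 CPM), which makes it at least 6.37-fold lower with 3 counts over the group in place of 0. It had 6 counts in 3 KO GFPlo cells (3.25 CPM), against 429 in 5 WT GFPlo cells (190 CPM). Of these 429 counts, 397 lay in 1 cell of primer ls_16 on the first date. That cell had 399 counts of Csn2, so the 2 neighbouring genes were at the same level there, and it also held 15 counts of Csn1s2a and 35 of Lalba. It was the deepest cell of its group, with 307380 counts. The 3 other cells of ls_16 on that date, each from another pool, had 21, 5 and 2 counts of Csn1s1.

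Csn1s2a was found mostly in WT GFPlo cells. It had 0 counts in KO GFPhi, 1 in WT GFPhi, 1 in KO GFPlo and 259 of its 261 counts in WT GFPlo cells, where it was in 13 of 39 cells (33.3%, 19.1–50.2%). Those 13 cells carried 3 primers, ls_16, ls_7 and ls_8, of the 6 used for this group. On the first date the 4 cells of ls_8 had 68, 24, 4 and 1 counts. Csn1s2b had 49 counts in 9 cells: 0 in KO GFPhi, 9 counts in 2 WT GFPhi cells, 17 in 2 KO GFPlo cells and 23 in 5 WT GFPlo cells. Over both dates its level was 9.20 CPM in KO GFPlo and 10.2 CPM in WT GFPlo cells (ratio 0.905, 0.454–1.77), but the dates went opposite ways. It was at 25.1 CPM in KO GFPlo, against 11.9 CPM in WT GFPlo cells, on the first date (ratio 2.10, 0.960–4.70), and at 0 counts in KO GFPlo, against 10 in WT GFPlo cells, on the second, at least 3.32-fold lower with 3 counts over the group in place of 0. Of the 17 KO counts 16 lay in 1 cell of primer ls_21.

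Csn3 had 108 counts in 14 cells. It had 1 count in KO GFPhi, against 78 in 6 WT GFPhi cells (0.332 and 22.5 CPM), of which 65 lay in 1 cell of primer ls_6 on the second date. It had 0 counts in KO GFPlo, against 29 in 7 WT GFPlo cells, at least 7.90-fold lower with 3 counts over the group in place of 0. In WT cells its level was 1.75 times as high in GFPhi as in GFPlo (1.13–2.79), but it had 0 counts in WT GFPhi on the first date, against 16 in WT GFPlo.

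The whey proteins were nearly absent. Lalba, the subunit that turns a galactosyltransferase into lactose synthase, had 37 counts in 3 cells, 35 of them in the ls_16 cell with most Csn1s1, and 1 each in a KO GFPhi and a KO GFPlo cell. Wap had 0 counts of 10587921, which allows up to 0.996 CPM in KO GFPhi, 0.865 in WT GFPhi, 1.62 in KO GFPlo and 1.33 in WT GFPlo cells (3 counts of each group's sum).

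**Figure D4:**
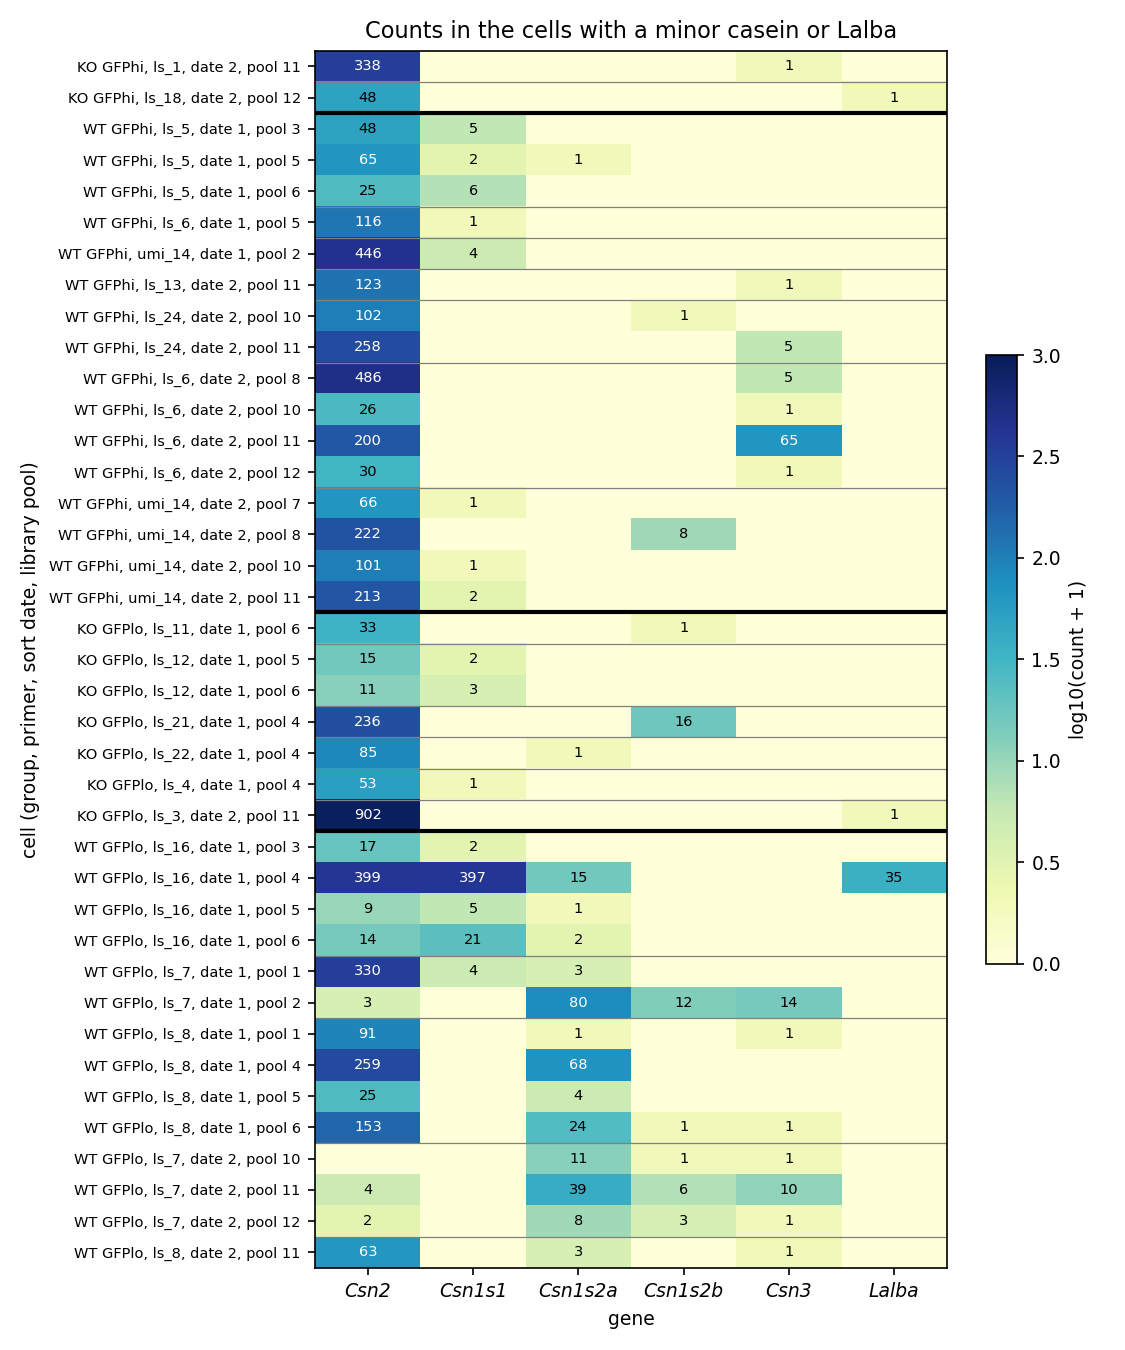
Counts of Csn2 and the rarer genes in the 39 cells that held a rarer casein or Lalba (rows: group, primer, sort date, library pool), with thin lines between primers or dates and thick lines between groups. Cells of primers ls_16, ls_7 and ls_8 hold most of the high counts, and cells of 1 primer often hold the same genes.

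Nearly every cell with a rarer casein also had Csn2. Of the 37 such cells 36 had it (97.3%, exact binomial 85.8–99.9%), against 148 of the 163 other cells (90.8%, 85.3–94.8%), with overlapping intervals. At 10 counts or more for each gene it was 66.7%, over 9 cells. The cell without Csn2 was a WT GFPlo cell of primer ls_7 on the second date with 11 counts of Csn1s2a, 1 of Csn1s2b and 1 of Csn3. On the first date all 21 cells with a rarer casein and all 51 others had Csn2. On the second date it was 15 of 16 and 97 of 112. The median Csn2 level was 1515 CPM in cells with a rarer casein and 917 CPM in the others, but the dates went opposite ways. It was 1298 CPM against 1734 CPM in the others on the first date, and 1686 CPM against 543 CPM on the second.

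Of the 37 cells 12 held more than 1 of the rarer caseins, and 11 of these 12 were WT GFPlo cells. Csn1s1 and Csn1s2a were together in 5 cells, which is 31.2% of the cells with Csn1s1 and 33.3% of those with Csn1s2a. Csn1s2a, Csn1s2b and Csn3, the neighbours on the far side of Csn2, were together in 5 cells, all WT GFPlo, and these 5 were all the WT GFPlo cells with Csn1s2b. The other 2 cells held Csn1s2a and Csn3. Csn1s1 was never counted in a cell with Csn1s2b or Csn3, over 16, 9 and 14 cells. The combinations followed primers. Of the 5 cells with the trio 4 carried ls_7, with 80, 12 and 14 counts of Csn1s2a, Csn1s2b and Csn3 in the cell of the first date and 39, 6 and 10, 8, 3 and 1, and 11, 1 and 1 in the 3 cells of the second. Those 4 cells had 3, 4, 2 and 0 counts of Csn2, far below the 330 counts of the other ls_7 cell of the first date, which had 4 counts of Csn1s1 and 3 of Csn1s2a. Of the 120 pairs among the 16 Csn1s1 cells, 10.8% shared a primer and a date, against 1.57% of all pairs of cells. For Csn1s2a, Csn1s2b and Csn3 it was 12.4, 8.33 and 11%, and for Csn2 1.60%. Cells of 1 primer and date are therefore not independent observations of co-detection. With only the deepest cell of each primer and date, every cell with a rarer casein had Csn2, and the log2 ratio of the 6 genes in KO over WT GFPhi cells was −5.43.

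Calls at 2-fold were common among all genes, so the members' counts are given beside that background. In KO over WT GFPhi cells 29.1% of 15033 genes (those with 10 or more counts over both groups) were at least 2-fold lower and 20% at least 2-fold higher. Of the 3 members with that many counts Csn1s1 and Csn3 were lower and 0 higher, and the median log2 ratio of the 3 was −5.29, against −0.13 for all genes. In KO over WT GFPlo cells 27.3% of all genes were lower and 23.6% higher. Of 6 members 4 were lower (Csn1s1, Csn1s2a, Csn3 and Lalba) and Csn2 was higher, with a median of −4.93, against −0.05. In WT GFPhi over WT GFPlo cells 24.2% were lower and 27.6% higher. Of 6 members 4 were lower (Csn1s1, Csn1s2a, Csn1s2b and Lalba) and Csn2 higher, with a median of −3.40, against 0.05. In KO GFPhi over KO GFPlo cells 26.1% were lower and 24.3% higher, and of the 2 members tested Csn1s2b was lower and 0 higher. In each pair the rarer members include genes that passed the count minimum through 1 group alone, such as Csn1s1 with 0 counts in KO GFPhi and 22 in WT GFPhi. Such genes could be called in 1 direction only. Nothing is therefore read from the number of members called or from their medians.

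Of the genes around the caseins 1 had more counts than Csn2, and the others had at most 592. Of 19 neighbours listed 16 were in the table, and 4 of them had 0 counts in every cell (Sult1e1, Prol1, Smr3a and Cabs1). The 4 with most counts were Igj, the antibody joining chain 828 kb from Csn2, with 28081 counts (11157 per kb of exon sequence, against 3054 for Csn2), the airway serine protease Tmprss11d with 592, the ribosome-biogenesis gene Utp3 with 487 and the enamel-related gene Amtn with 122. Csn1s1 and Csn2 were flanked by sulfotransferases with few counts, Sult1b1 with 33 and Sult1d1 with 24, and Odam, between Csn1s2b and Csn3, had 8. In KO over WT GFPhi cells 7 of 8 neighbours with enough counts were at least 2-fold lower and 0 higher, with a median log2 ratio of −1.64, beside 29.1% of all genes lower. In KO over WT GFPlo cells it was 4 of 6, with a median of −4.46, beside 27.3% of all genes lower. Of those 6 genes 3 (Amtn, Rufy3 and Ugt2a3) had 0 counts in KO GFPlo cells and reached the count minimum through WT GFPlo cells alone, so they could only be lower, and nothing is read from that count or median. In the high gate 1 of the 8, Sult1b1, had 0 counts in KO GFPhi cells. Others were near the count minimum, such as Ambn with 10 counts in all cells. Amtn was at 0.664 CPM in KO GFPhi and 2.31 CPM in WT GFPhi cells. Nothing is read from the count or median of the high gate either. Igj was at 89.3 CPM in KO GFPhi, against 5301 in WT GFPhi cells, and at 169 in KO GFPlo, against 4032 in WT GFPlo cells. In both WT groups it was above the Csn2 level, but 29.4% of all Igj counts lay in 1 cell. Among GFPlo cells the direction of Igj differed between dates. It was at 69.3 CPM in KO GFPlo, against 11.9 CPM in WT GFPlo cells, on the first. On the second it was at 228 CPM in KO GFPlo, against 7764 CPM in WT GFPlo cells. It is a product of antibody-secreting cells, and the part of such cells' RNA in its level was not tested.

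**Figure D5:**
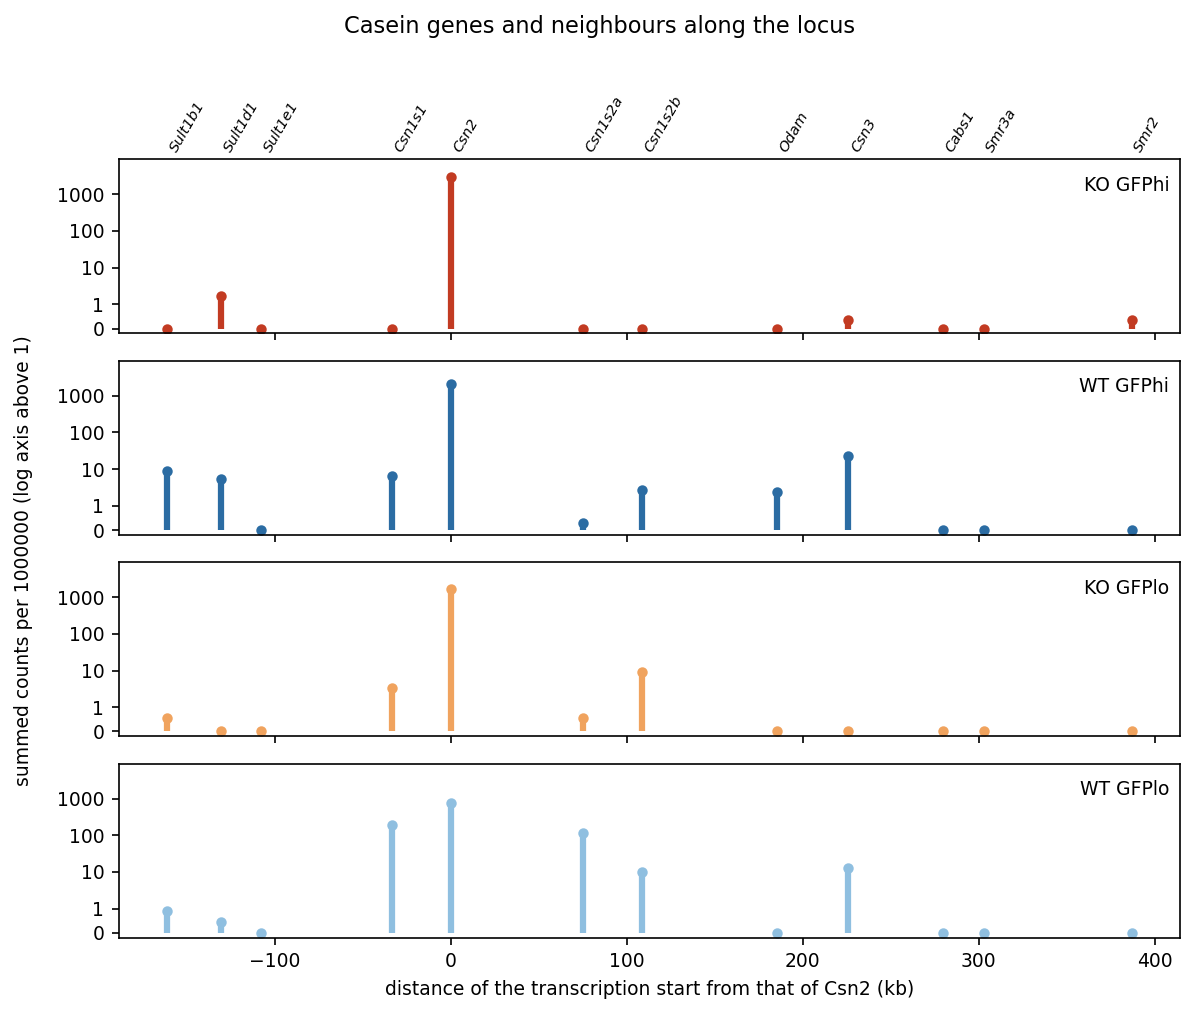
Level of summed counts (counts per 1000000, log axis above 1) of the casein genes and neighbours in each group, placed by the distance in kb of their start from that of Csn2. Csn2 stands at 769 to 3018 CPM in all groups, while the other caseins are above 10 CPM in WT GFPlo cells and, for Csn3, WT GFPhi cells.

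Other products of the lactating mammary gland were mixed. Of 23 listed 22 were in the table and all had counts. In KO over WT GFPhi cells 5 of 14 with enough counts were lower and 4 higher, with a median log2 ratio of −0.80. Among all genes 29.1% were lower and 20% higher. In KO over WT GFPlo cells 8 of 15 were lower and 0 higher, with a median of −1.49, beside 27.3% and 23.6% of all genes. Muc15 had 0 counts in KO GFPhi cells, and Ltf and Fabp3 had 0 in KO GFPlo cells, so there they could only be lower. Wfdc18, a relative of Wap with a WAP-type domain, was the most abundant, with 15191 counts in 133 cells. The top cell held 21.4% of these counts, and the intervals of the ratios cover counting error only, not this spread between cells. Wfdc18 was at 1613 CPM in KO GFPhi, against 225 CPM in WT GFPhi cells (ratio 7.17, 6.65–7.74, log2 3.52 and 2.67 by date), and at 2223 CPM in KO GFPlo, against 2409 CPM in WT GFPlo cells. The low-gate counts were nearly all of the second date, with 3495 CPM in KO GFPlo, against 4555 CPM in WT GFPlo cells (ratio 0.767, 0.736–0.799). On the first date it was at 29.5 CPM in KO GFPlo, against 97.4 CPM in WT GFPlo cells (0.303, 0.178–0.491). B4galt1, the galactosyltransferase that Lalba modifies, was at 86.0 CPM in KO GFPhi, against 31.7 CPM in WT GFPhi cells. Mfge8, a protein of the milk fat globule, was at 57.4 CPM in KO GFPhi, against 63.4 CPM in WT GFPhi cells (ratio 0.905, 0.738–1.11), and the mucin Muc1 at 72.7 CPM, against 35.8 CPM.

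The hormone receptors and transcription factors of lactation all had counts, 18 of 18, though Elf5 had only 42 in 6 cells and 0 in KO GFPlo cells. In KO over WT GFPhi cells 5 of 18 were at least 2-fold lower and 7 higher, with a median log2 ratio of 0.33. Among all genes 29.1% were lower and 20% higher. In KO over WT GFPlo cells 2 of 16 were lower and 8 higher, with a median of 0.77, beside 27.3% and 23.6% of all genes. The prolactin receptor Prlr was counted in 35 cells, at 36.9 CPM in KO GFPhi, against 16.4 CPM in WT GFPhi cells (ratio 2.24, 1.62–3.14), and at 20.6 CPM in KO GFPlo, against 2.65 CPM in WT GFPlo cells (7.75, 3.25–22.4). The GFPlo counts lay in 3 KO GFPlo and 3 WT GFPlo cells, and 36 of the 38 KO counts were of the first date, so that ratio rests on few cells. Nfia, a nuclear factor I gene, had most counts of the list (4102), at 416 CPM in KO GFPhi, 385 in WT GFPhi, 391 in KO GFPlo and 351 in WT GFPlo cells. Stat5a was counted in 153 cells, at 226 CPM in KO GFPhi, 155 in WT GFPhi, 179 in KO GFPlo and 140 in WT GFPlo cells. Cish, a STAT5 target and inhibitor of the pathway, was at 189 CPM in KO GFPhi, against 81.9 CPM in WT GFPhi cells, and at 124 CPM in KO GFPlo, against 58.4 CPM in WT GFPlo cells. Cebpb, a transcription factor of the mammary epithelium, was at 57.8 CPM in KO GFPhi, 38.9 in WT GFPhi, 78.0 in KO GFPlo and 62.4 in WT GFPlo cells, with the low gate going opposite ways by date (log2 ratios of −0.98 and 1.77). Any link between these levels and Csn2 was not tested.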

How the data were processed

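Transcripts were counted in 200 single sorted cells. The submitters' processing notes name the mm10 genome and, with no role or order, HTSeq, SAMtools 0.1.19, Picard 1.79, TopHat and TopHat2. The deposited table holds raw whole-number counts per gene and cell, without normalization by the authors. Whether molecular identifiers were collapsed is not given in the sources used here, and 40 cells had a total above their deposited identifier count. Per the file headers, flow cytometer intensity is in arbitrary units. All cells were used, with no filter and no doublet step. The 37 mitochondrial genes had 0 counts. Levels are summed counts per 1000000, with exact 95% Poisson intervals. Ratios have exact conditional binomial intervals. Both kinds cover counting error at most, and are too narrow if PCR copies were counted. Shares have exact binomial intervals, which treat cells as independent, though cells of 1 primer and date are not. Log2 ratios add 0.5 counts to each sum. With 1 sample a group there is no test, and differences have no replicate check. Calls need 10 counts in the pair and a 2-fold ratio. A group at 0 is bounded with 3 counts. Named genes were the members, the 8 most like Csn2, Aire, Fezf2, and of each list up to 4 genes with most counts and those at 0. Sult1b1, Sult1d1 and Odam were named for their place and Prlr for its role, after values were seen. Alternatives were each date, primer kind or pool, other scalings and fewer cells. The calculations were tested on simulated data. The members and lists were chosen with earlier results of these data known. Python 3.11.15, scipy 1.17.1, R 4.3.3 and edgeR 4.0.16 (for TMM scaling only) were used.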

Additional observations from a re-analysis of the deposited data

Results flagged for a closer look

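The Csn2 ratio of KO GFPhi over WT GFPhi cells changed direction between sort dates. The log2 ratio was −0.16 on the first date, from 9 KO and 23 WT cells, and 1.08 on the second, from 39 KO and 38 WT cells. The difference between the dates was not tested, since each date holds 1 sample a group. The KO GFPhi level was 3088 CPM on the first date and 2990 CPM on the second, against 3445 and 1414 CPM in WT GFPhi cells. Without 1 of the 9 KO GFPhi cells of the first date, which held 36% of the counts, the KO level of that date was 2139 CPM.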

How the results depend on the processing

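Of 98 values under alternative settings, pools left out aside, 43 stayed within the counting interval, 52 moved beyond it and 3 changed sign, and the causes were not tested. The log2 ratios of Csn2 are given in the order KO over WT GFPhi, KO over WT GFPlo, WT GFPhi over GFPlo and KO GFPhi over GFPlo, with 0.52, 1.10, 1.45 and 0.87 over all cells. They were −0.16, 0.91, 1.35 and 0.28 on the first sort date and 1.08, 2.33, 2.65 and 1.40 on the second. They were 0.62, 0.92, 1.05 and 0.75 with ls primers and 0.21, 3.02, 4.26 and 1.44 with umi primers. With the mean of per-cell CPM they were 0.25, 0.23, 0.65 and 0.67. Without leukocyte-marked cells the first, second and last were 0.010, 1.21 and 0.19. TMM scaling gave 0.58 for the first and 0.99 for the last. Without the highest cell of each group the second was 0.79 and the last 1.22.

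Leaving out 1 pool at a time gave 0.26 to 0.72, 0.62 to 1.53, 1.26 to 1.88 and 0.72 to 1.22.

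The next settings were chosen after seeing the data. Without cells marked by the list without Rac2 the 4 ratios were 0.45, 1.40, 1.26 and 0.31. With the deepest cell of each primer and date they were 0.75, 1.32, 1.35 and 0.77. Without the primer and date with most counts in each group they were 0.42, 1.05, 1.82 and 1.19. Compared within library pools and combined with Mantel-Haenszel weights they were 0.57, 1.44, 1.83 and 1.19.

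For the 6 other genes, KO over WT GFPhi (−5.26) stayed within its counting interval under all settings other than pools, and was −5.95 to −4.41 over pools. On the first date and with umi primers KO GFPhi cells had 0 counts of these genes, so those values rest on the 0.5 counts added. WT GFPhi over GFPlo (−3.43) was −5.25 and −0.86 by date, 4.56 with umi primers, −2.83 without leukocyte-marked cells, −3.01 without those marked without Rac2, −3.84 by per-cell mean and −3.85 without the leading primer and date. The size of the umi value rests on the 0.5 counts added, since WT GFPlo cells of umi primers had 0 counts of these genes. Over pools the WT GFPhi over GFPlo ratio was −4.81 (without pool 11) to −1.98 (without pool 4). The share of cells with Csn2, KO minus WT GFPhi (−4.61 percentage points), was 1.37 at 10 counts or more, −22.9 with umi primers and −6.98 to −2.79 over pools. The percent of cells with another casein that had Csn2 (97.3) was 66.7 at 10 counts or more, 100 on the first date, with umi primers and with the deepest cells, and 96.7 to 100 over pools. No paired analysis was possible because replicate numbers only name cells. Pools do hold cells of several groups, and their values are above. Depth and 1 sample a group limit all values to these cells.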
